A study of Rattus norvegicus with 64 samples.

Results

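Chaperones are proteins that help other proteins fold, and 9 genes for them were followed here across the brain of rats given doxorubicin. They were found by symbol from a list that was drawn up with earlier results of these data known, with no cut on a measured value, and are 9 of the 32551 gene identifiers in the count tables. Of these, 5 work inside the endoplasmic reticulum (ER), the compartment where secreted and membrane proteins are made: Hspa5, Hsp90b1, Calr, Pdia6 and Manf. The other 4 work in the cytosol: Hspa8, Hsph1, Dnajb1 and Hsp90aa1. All 9 were expressed highly enough to be tested in every comparison.

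RNA sequencing of the hippocampus and the cortex of 32 rats gave 64 libraries, and the study asks how doxorubicin, an anthracycline given against cancer that traps topoisomerase II on DNA, changes brain gene expression in each ApoE genotype. All rats were ApoE3 or ApoE4, named for the human apolipoprotein E isoforms, and the strain, the way the alleles were introduced and any rat without them are not given in the sources used here. Doxorubicin was given at 2 mg/kg a week for 4 weeks from the age of 5 weeks, the other rats received phosphate-buffered saline (PBS), and the brain regions were collected between 5 and 6 weeks after dosing ended. The 8 groups were therefore ApoE3 PBS, ApoE3 doxorubicin, ApoE4 PBS and ApoE4 doxorubicin in hippocampus, and the same 4 in cortex, each with 8 libraries from 4 male and 4 female rats.

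The ER and the cytosol each have their own stress response. Unfolded proteins in the ER activate the unfolded protein response, in which the transcription factors ATF6 and XBP1 raise ER chaperone genes through ER stress response elements (ERSE), while unfolded proteins in the cytosol activate heat shock factor HSF1, which binds heat shock elements (HSE). Neurons make large amounts of membrane and secreted protein and are known to express constitutive chaperones strongly. Hspa5 encodes BiP, the ER Hsp70, which binds unfolded chains and restrains the stress sensors. Hsp90b1 encodes GRP94, the ER Hsp90. Calr encodes calreticulin, a lectin-like chaperone of glycoproteins that also stores calcium. Pdia6 encodes a protein disulfide isomerase, and Manf an ER-resident protein that is released under stress and has neurotrophic activity. In the cytosol, Hspa8 encodes the constitutive Hsp70 (Hsc70), Dnajb1 a J-domain partner that loads clients onto Hsp70, Hsph1 an Hsp110 that acts as nucleotide exchange factor of Hsp70, and Hsp90aa1 the stress-inducible cytosolic Hsp90.

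The promoters of 6 members were found by symbol in the RefSeq table of the rat build GRCr8, as 300 bases that run from 250 before to 50 after the start of the gene. The 5 that hold a full element are printed because they carry the sequence difference between the ER and the cytosolic members. Each reads 5′ to 3′ on the strand of its gene. Capitals mark the fixed letters of the elements, searched on both strands: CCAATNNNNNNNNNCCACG for the ERSE and GAANNTTCNNGAA for an HSE of 3 units.
Hspa5 (chr3:38452766-38453065, plus strand): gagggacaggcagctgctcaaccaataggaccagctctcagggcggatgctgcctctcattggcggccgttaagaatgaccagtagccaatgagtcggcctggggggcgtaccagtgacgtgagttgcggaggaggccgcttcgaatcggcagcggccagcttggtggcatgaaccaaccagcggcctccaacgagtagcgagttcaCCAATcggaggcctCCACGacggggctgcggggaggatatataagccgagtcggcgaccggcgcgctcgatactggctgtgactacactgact
Hsp90b1 (chr7:23012244-23012543, minus strand): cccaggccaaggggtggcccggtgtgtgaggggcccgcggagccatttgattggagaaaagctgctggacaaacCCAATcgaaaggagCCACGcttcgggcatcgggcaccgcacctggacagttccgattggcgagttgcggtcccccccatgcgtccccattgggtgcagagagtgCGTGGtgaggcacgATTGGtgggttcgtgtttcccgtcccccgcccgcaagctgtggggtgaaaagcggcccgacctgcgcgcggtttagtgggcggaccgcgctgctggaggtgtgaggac
Calr (chr19:40213117-40213416, plus strand): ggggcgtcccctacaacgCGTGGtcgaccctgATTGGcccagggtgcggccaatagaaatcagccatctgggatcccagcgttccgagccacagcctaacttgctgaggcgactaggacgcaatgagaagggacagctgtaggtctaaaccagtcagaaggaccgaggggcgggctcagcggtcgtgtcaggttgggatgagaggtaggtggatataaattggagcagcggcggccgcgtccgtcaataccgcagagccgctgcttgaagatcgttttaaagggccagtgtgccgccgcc
Hspa8 (chr8:50080264-50080563, plus strand): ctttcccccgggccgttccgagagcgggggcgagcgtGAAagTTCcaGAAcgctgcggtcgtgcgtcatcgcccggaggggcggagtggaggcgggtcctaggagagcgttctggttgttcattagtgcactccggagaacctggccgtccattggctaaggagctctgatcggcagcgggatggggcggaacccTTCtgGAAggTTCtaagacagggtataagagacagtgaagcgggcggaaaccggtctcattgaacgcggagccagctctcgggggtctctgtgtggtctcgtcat
Hsph1 (chr12:10427118-10427417, plus strand): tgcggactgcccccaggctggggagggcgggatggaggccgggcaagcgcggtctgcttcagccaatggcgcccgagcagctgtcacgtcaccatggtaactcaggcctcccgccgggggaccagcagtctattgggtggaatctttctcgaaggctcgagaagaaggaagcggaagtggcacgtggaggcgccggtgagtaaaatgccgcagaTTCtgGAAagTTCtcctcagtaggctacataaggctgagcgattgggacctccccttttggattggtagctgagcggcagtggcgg

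All 3 ER members with a promoter in the table held an ERSE and 0 held the HSE. Hspa5 has 1, which begins 43 bases before the start. Hsp90b1 has 2, at 176 and 72 bases before it and on opposite strands, and Calr has 1, at 232 bases before it on the strand opposite the gene. Of 33365 promoters of the same length, 22 (0.0659%) hold the ERSE. Of the 3 cytosolic members found, Hspa8 holds 2 of the HSE, at 213 and 55 bases before the start, Hsph1 holds 1 at 36 bases, and Dnajb1 (chr19:41431092-41431391, minus strand) holds 0. The HSE occurs in 266 promoters (0.797%). A match describes letters and is no evidence of a bound factor. The table holds no promoter for Pdia6, Manf or Hsp90aa1.

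Total counts per library ran from 10.8M to 20.4M with a median of 14.5M, with 0.932% to 2.44% of counts on the ERCC spike-ins and 6.15% to 10.4% on mitochondrially encoded transcripts. The hippocampal label was checked with the dentate granule cell gene Prox1, which was 2.49 higher on the log2 scale in ApoE3 hippocampus than in cortex and 2.43 higher in ApoE4. Levels are given as CPM, the count divided by the scaled library total. No transcript lengths were at hand, so levels are compared between groups and not between genes. Choroid plexus, the fluid-secreting tissue beside the hippocampus, was present to very different degrees: its 6 markers (Ttr, Kl, Clic6, Sostdc1, Kcnj13 and Folr1) summed to 5.04 to 12320 CPM in hippocampal libraries and to 2.63 to 835 CPM in cortical ones, with none at 0 throughout a group. The part of this tissue in the results below was not tested beyond the fits that carry its marker score. In tissue RNA, fewer cells of a type and less RNA per cell cannot be told apart. Rats of 1 genotype, sex and treatment carry consecutive ranges of numbers and no batch is labelled, so a batch that follows these ranges cannot be told apart from the groups.

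The members differed in how many reads stood behind them. Hspa8 had 9048 to 18674 counts, Hspa5 3128 to 8662 and Manf 464 to 958. Hsp90aa1 is the exception, with 53 to 140 counts per library and a median of 79.5, where its paralog Hsp90ab1 had 15479 to 35513. How reads shared by Hsp90 paralogs and retrocopies were assigned is not given in the sources used here, so the Hsp90aa1 values are uncertain.

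**Figure D1:**
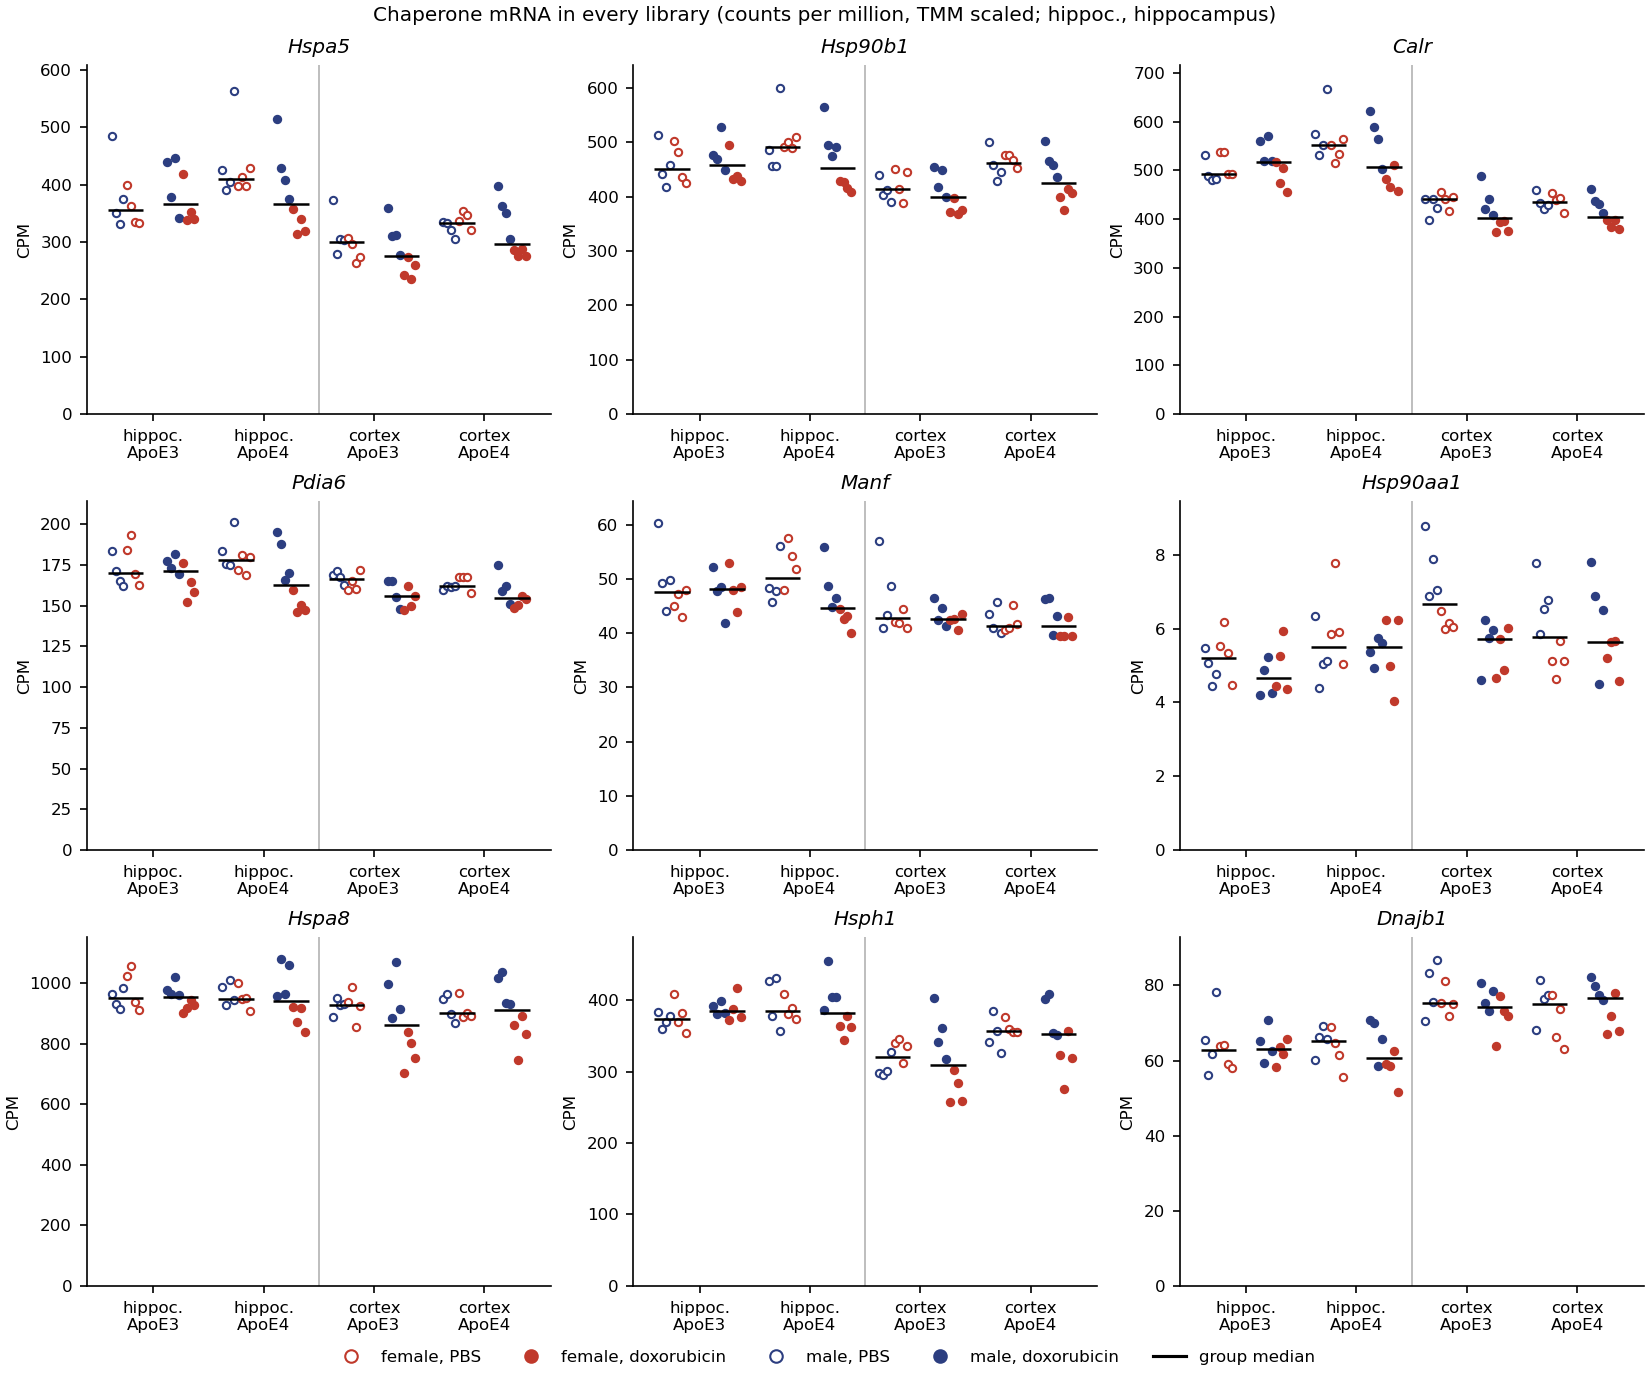
Level of each chaperone gene in CPM (vertical axis, linear and starting at 0) in the 8 groups of region, genotype and treatment, 1 point per library (n = 8 per group; open PBS, filled doxorubicin; red female, blue male) with a bar at the group median. Hspa5 and Calr sit higher in hippocampus than in cortex, Dnajb1 sits lower, and the PBS and doxorubicin groups overlap for every gene.

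The chaperones were first compared between the 2 regions of untreated rats. Among PBS rats, 6 of 9 members passed between hippocampus and cortex in ApoE3 and 5 of 9 in ApoE4, by edgeR's quasi-likelihood test with Benjamini-Hochberg adjustment over all genes and a threshold of 0.05. This is close to the background, since 51% of all tested genes passed in ApoE3 (27.5% higher and 23.6% lower in hippocampus) and 50.4% in ApoE4 (24.7% higher and 25.7% lower). Hspa5 and Calr were higher in hippocampus in both genotypes, Dnajb1 was lower in both, Hsp90b1, Hsph1 and Hsp90aa1 passed in ApoE3, Manf and Pdia6 passed in ApoE4, and Hspa8 passed in neither. Whether the regional difference itself depended on genotype was not tested.

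Hspa5 in ApoE3 PBS rats ran from 331 to 485 CPM in hippocampus (median 356) and from 264 to 373 in cortex (median 299.6). In ApoE4 PBS rats it ran from 390.4 to 562 CPM (median 409) in hippocampus and from 305 to 353 (median 334) in cortex. The groups overlapped in ApoE3 and were fully apart in ApoE4. The log2 difference was 0.32 in ApoE3 (SE 0.07, n = 8 libraries per group, adjusted p = 0.000603) and 0.34 in ApoE4 (SE 0.07, adjusted p = 0.000235). Calr, the calcium-storing lectin chaperone, ran from 479.6 to 538 CPM in ApoE3 hippocampus against 399 to 456 in cortex, and from 515 to 667 against 412 to 460.2 in ApoE4. Its groups were apart in both genotypes, at a log2 difference of 0.23 in ApoE3 (SE 0.05, adjusted p = 0.000116) and 0.34 in ApoE4 (SE 0.05, adjusted p = 2.2e-07). Within single rats the direction was uniform, since 32 of 32 rats, treated ones included, had more Hspa5 and more Calr in hippocampus than in cortex.

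The other ER chaperones were higher in hippocampus by smaller amounts. Hsp90b1 passed in ApoE3 at 0.14 (SE 0.05, adjusted p = 0.018) and had 0.09 in ApoE4 (adjusted p = 0.193). Manf passed in ApoE4 at 0.25 (SE 0.06, adjusted p = 0.000253) and had 0.11 in ApoE3 (adjusted p = 0.134). Pdia6 passed in ApoE4 at 0.12 (SE 0.04, adjusted p = 0.0206) and had 0.08 in ApoE3 (adjusted p = 0.104). In ApoE4, the PBS groups of Manf (45.82 to 57.6 CPM in hippocampus and 40.0 to 45.78 in cortex) and of Pdia6 (169 to 201 and 158 to 168) were apart. Together with Hspa5 and Calr this made 4 of 9 members without overlap and higher in ApoE4 hippocampus, where 10% of all genes were (19.6% in either direction), and Calr and Hsph1 made 2 of 9 in ApoE3, where 9.26% were (18.5% in either direction). The hippocampal level was above the cortical one in 31 of 32 rats for Manf, 29 for Hsp90b1 and 24 for Pdia6.

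Cytosolic chaperones did not share a direction. Hsph1, the Hsp110, ran from 353 to 409 CPM in ApoE3 hippocampus and 295 to 346 in cortex, a log2 difference of 0.24 (SE 0.06, adjusted p = 0.00168). In ApoE4 it had 0.12 (adjusted p = 0.0827). Dnajb1, the J-domain partner, went the other way, with 56.1 to 78.2 CPM in ApoE3 hippocampus and 70.4 to 86.7 in cortex, and 55.6 to 69.3 against 63.1 to 81.4 in ApoE4. The groups overlapped, and the log2 difference was -0.28 in ApoE3 (SE 0.05, adjusted p = 4.6e-05) and -0.21 in ApoE4 (SE 0.05, adjusted p = 0.00104). In 0 of 32 rats was Dnajb1 higher in hippocampus. Hspa8, the constitutive Hsp70, had 0.07 and 0.05 and passed in neither genotype, with 25 of 32 rats higher in hippocampus. Hsp90aa1 passed in ApoE3 at -0.41 (SE 0.10, adjusted p = 0.000691) and had -0.07 in ApoE4, on the low counts given above.

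**Figure D2:**
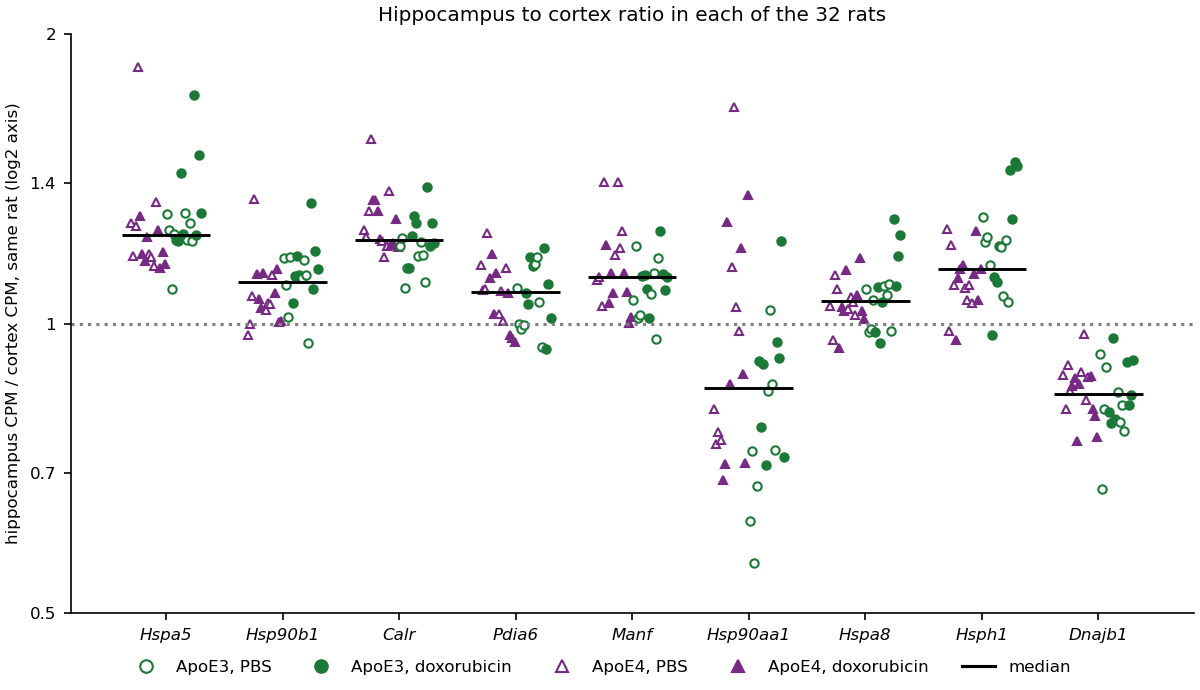
Ratio of the hippocampal to the cortical level (CPM) within each of the 32 rats, on a log2 axis, for each chaperone gene, 1 point per rat (circles ApoE3, triangles ApoE4; filled doxorubicin) with a bar at the median. For Hspa5 and Calr every rat lies above a ratio of 1, with medians of 1.24 and 1.22, and for Dnajb1 every rat lies below it, with a median of 0.846.

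With the rat as a block, which uses that both regions come from the same animal, 7 members passed in ApoE3 (51.1% of all genes) and 6 in ApoE4 (50.2%), adding Manf in ApoE3 (adjusted p = 0.0284) and Hsph1 in ApoE4 (adjusted p = 0.0232). The choroid plexus markers were on the same side as the ER chaperones: 6 of 6 were above 0 in ApoE3 hippocampus with 0 passing and a median log2 difference of 2.49, and 6 of 6 passed higher in ApoE4 with a median of 3.88. With their score as a covariate, Hspa5 kept 0.27 and 0.25 and Calr 0.22 and 0.29, and the calls of Hsp90b1 in ApoE3 (0.12, adjusted p = 0.053) and Pdia6 in ApoE4 (0.08, adjusted p = 0.106) ended. Scaled by the ERCC spike-ins in place of all genes, 0 members passed in ApoE3, where 24.4% of all genes did, and 2 in ApoE4, Hspa5 and Calr, where 23.2% did.

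Other genes of the same pathways passed in both directions as well, to be read against the 51% and 50.4% of all genes that passed. Of 22 further ER folding genes tested in ApoE3, 9 were higher in hippocampus and 4 lower, and of 21 in ApoE4, 9 were higher and 3 lower. Pdia3, a disulfide isomerase that works with calreticulin, was higher by 0.31 in ApoE3, and the peptidyl-prolyl isomerase gene Fkbp2 was lower by log2 values of -0.44 in ApoE3 and -0.33 in ApoE4. The list of stress sensors and ER-associated degradation had 10 of 18 higher and 1 lower in ApoE3 and 9 and 1 in ApoE4. Its members Sel1l and Derl1, parts of the ER degradation machinery, were higher by 0.49 and 0.43 in ApoE3 and by 0.36 and 0.55 in ApoE4. Among 11 targets of the stress kinase PERK and its factor ATF4, 5 were higher and 2 lower in ApoE3 and 4 and 3 in ApoE4, with Asns higher (0.59 and 0.61) and Atf4 itself lower (-0.38 and -0.26). Of 31 further cytosolic heat shock genes, 14 were higher and 5 lower in ApoE3 and 12 and 5 in ApoE4, among them Hspa2, an Hsp70, higher by 0.67 and 0.75, and Hspa4l, an Hsp110, lower at -0.44 and -0.47. The chaperonin TRiC had 2 of 8 subunits higher in ApoE3 and 3 in ApoE4, with 0 lower. The median over all genes was 0.02 in ApoE3 and 0.00 in ApoE4, and over the ER folding list 0.12 and 0.10.

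Doxorubicin against PBS, the comparison the study was built for, passed for 0 of the 9 members in any of the 4 pairs of groups. In the same tests 0% of all genes passed, of 14899 in ApoE3 hippocampus, 14873 in ApoE4 hippocampus, 14775 in ApoE3 cortex and 14838 in ApoE4 cortex. At an unadjusted p below 0.05 there were 0, 3, 2 and 2 members in that order, where 10.3%, 7.38%, 9.25% and 8.82% of all genes were. DESeq2 called 162, 1, 76 and 40 genes and 0 members. In the authors' deposited tables the adjusted p of the members, where given, was 0.2763 or more in all 4 comparisons. Those tables hold 149, 1, 8 and 28 genes with an adjusted p below 0.05, in the same order. No adjusted p is given for 869 of 14934 genes in ApoE3 cortex and 8125 of 14968 in ApoE4 cortex. PBS and doxorubicin groups overlapped for every member, where 0.0268%, 0.0134%, 0.0406% and 0.0472% of all genes, in the same order, did not overlap. These comparisons share their PBS libraries with the comparisons of region and genotype.

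In ApoE4 hippocampus all 9 values lay below 0. Hspa5 had 314 to 515 CPM with a median of 366 after doxorubicin, against the 390.4 to 562 with a median of 409 given for PBS. Its log2 change was -0.18 (SE 0.08, unadjusted p = 0.037, adjusted p = 0.646). Manf, at 40.1 to 56.0 CPM (median 44.6) after a PBS median of 50.1, had -0.17, and Pdia6, at 146 to 195 CPM (median 163) after a PBS median of 178, had -0.13, both with an adjusted p of 0.641. The medians lay lower and the ranges overlapped. The median of the 5 ER members was -0.13 and of the 4 cytosolic members -0.04. Of 21 further ER folding genes 18 were below 0, with 0 passing and a median of -0.06. The 6 choroid plexus markers were all below 0 here as well, with 0 passing and a median of -3.02, and they summed to 12.3 to 12320 CPM in PBS and 8.8 to 2261 CPM in doxorubicin libraries. With their score as a covariate Hspa5 had -0.13, Manf -0.14 and Pdia6 -0.11.

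In ApoE3 hippocampus the values lay on both sides of 0, from 0.05 for Hsph1 and 0.04 for Hspa5 to -0.10 for Hsp90aa1. Hspa5 had 339 to 446 CPM with a median of 366 after doxorubicin and a PBS median of 356. The genotype by doxorubicin term, ApoE4 minus ApoE3, was -0.21 for Hspa5 (SE 0.12, adjusted p = 0.658) in hippocampus and passed for 0 members and 0% of genes in either region. In ApoE3 cortex all 9 values lay below 0, and the largest was that of Hsp90aa1 (-0.33, SE 0.10, unadjusted p = 0.0031, adjusted p = 0.287), from a median of 6.68 CPM in PBS to 5.73. The cytosolic heat shock list there had 25 of 31 values below 0 with a median of -0.05, and TRiC 8 of 8 with a median of -0.06, with 0 passing in either. In ApoE4 cortex, 8 of 9 lay below 0, and Hsp90b1 (-0.12, adjusted p = 0.461) and Calr (-0.09, adjusted p = 0.476) had an unadjusted p below 0.05. The region by doxorubicin term passed for 0 members in either genotype, where 0% of all genes passed. At an unadjusted p below 0.05 were 1 member for genotype in cortex, Hsp90aa1 (5.45% of all genes), 0 for genotype in hippocampus (8.18%), and 0 for region in ApoE3 (8%) and ApoE4 (3.59%). By DESeq2 0 members passed in any of these 4 difference tests, where 0.00394%, 0.016%, 0.51% and 0% of all genes passed in that order.

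**Figure D3:**
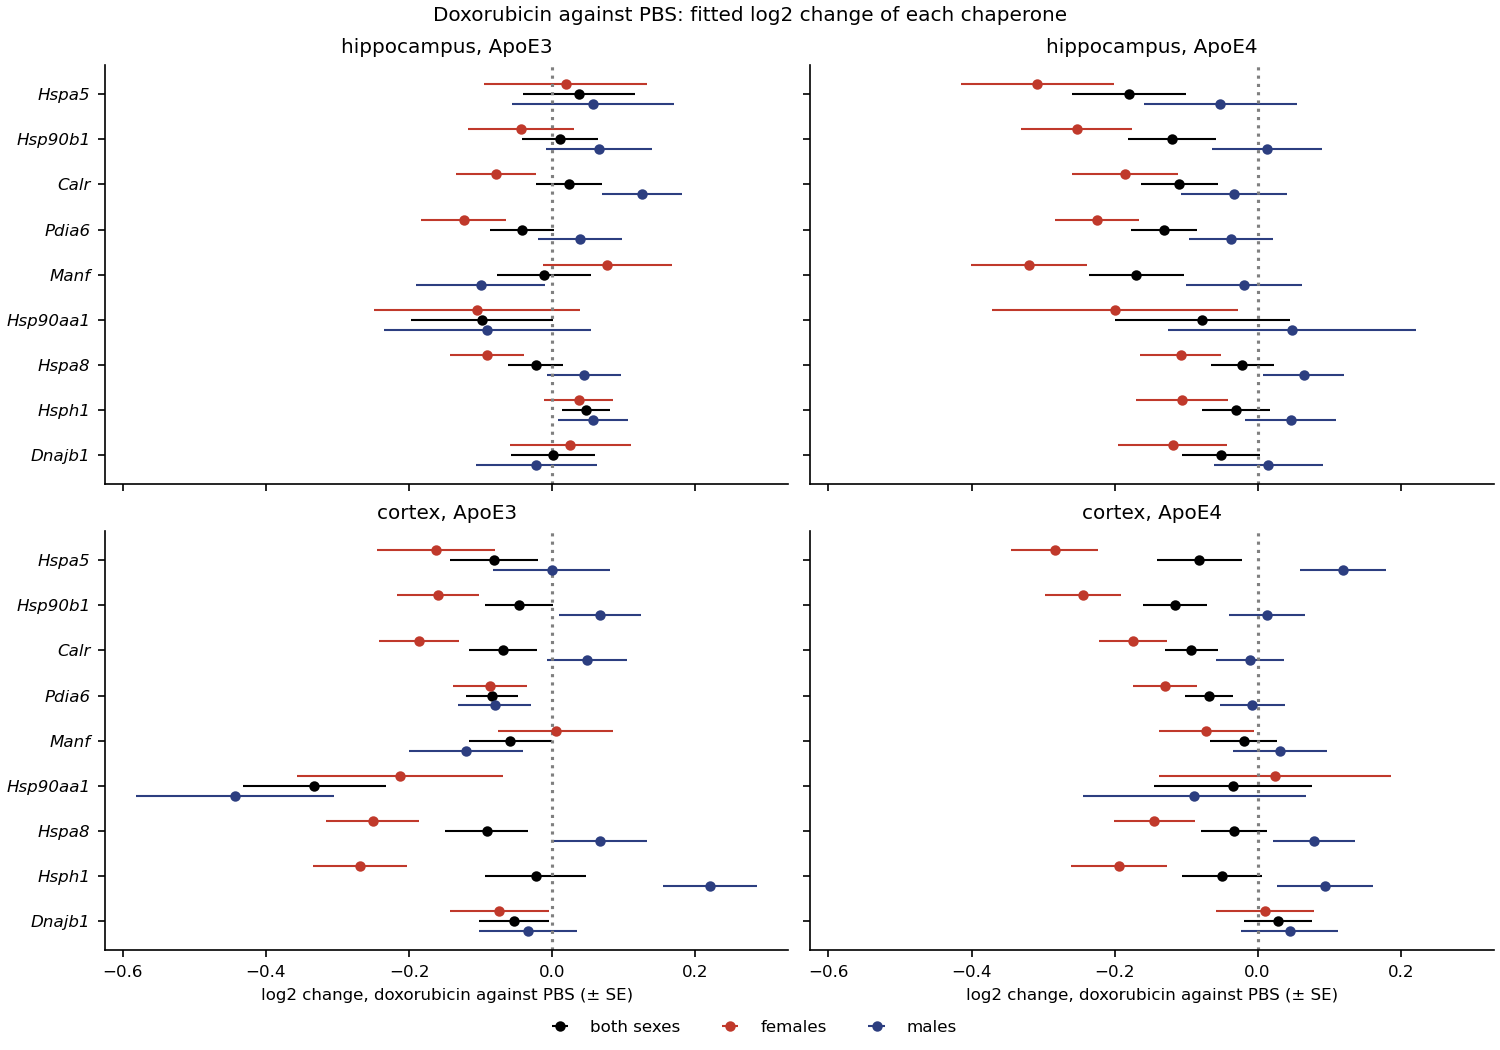
Log2 change of doxorubicin against PBS for each chaperone gene in the 4 pairs of region and genotype, with bars of 1 SE from the edgeR fits, for both sexes (black, 8 libraries per group), females (red) and males (blue). No gene passed in both sexes together, and all 9 black points lie below 0 in ApoE4 hippocampus and ApoE3 cortex.

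In cortex the doxorubicin effect on Hsph1 differed between females and males. The doxorubicin effect in females minus that in males was tested within each region and genotype. In ApoE3 cortex it passed for 1 of 9 members, where 2.57% of all genes passed. Hsph1 had 312, 335, 339.9 and 346 CPM in the 4 PBS females and 257, 258, 284 and 302 in the 4 doxorubicin females. In males it had 295, 298, 300.2 and 328 CPM in PBS and 318, 341, 360.5 and 402 after doxorubicin. All treated females lay below all PBS females, while the males overlapped with the treated ones higher. The difference of the effects was -0.49 (SE 0.09, adjusted p = 0.00741), and it passed in each of 16 fits that left out 1 rat, with values from -0.54 to -0.43. Those fits called 125 to 699 genes in all.

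Within the same fit, an analysis added after the data were seen, Hsph1 fell in ApoE3 females (-0.27, SE 0.07, adjusted p = 0.0427; 1.33% of all genes passed) and had 0.22 in males (SE 0.07, adjusted p = 0.116). The fall in females did not pass in a fit of the 8 female libraries alone (adjusted p = 0.0516). Hspa8, which Hsph1 serves as exchange factor, had 853, 925, 935 and 987 CPM in PBS females and 702, 751, 802 and 839 in treated ones, and its difference between the sexes was -0.32 (SE 0.09, adjusted p = 0.0609). Males had 887, 926, 929 and 950.4 CPM in PBS and 884, 913, 995 and 1069 after doxorubicin. Hspa8 passed by DESeq2 (adjusted p = 0.0143, where 3.13% of all genes passed) and without the filter on low counts (adjusted p = 0.0324, where 2.6% did). It also passed in the edgeR fits without rat 52 or rat 66 (adjusted p = 0.0473 and 0.0458). Those 2 fits called 547 and 468 genes in all, against 380 in the fit of all rats. Calr had -0.24 between the sexes (adjusted p = 0.101), with 417, 442, 445 and 456 CPM in PBS females and 374, 375.5, 393 and 396 in treated ones. It passed by DESeq2 (adjusted p = 0.0421), which called 3.13% of all genes. The direction of these 3 genes was the same, with every treated female below every PBS female.

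In ApoE4 cortex 0 members passed the same test by edgeR, where 0.00674% of all genes passed and 5.84% had an unadjusted p below 0.05. Hspa5 came nearest. It had 321, 337, 347 and 353 CPM in PBS females and 275, 276, 285 and 287 in treated females, with no overlap. In males it had 305, 320.2, 332 and 335 CPM in PBS and 305, 350.3, 362 and 398 after doxorubicin, with overlap. The difference was -0.40 (SE 0.09, unadjusted p = 0.000114, adjusted p = 0.159). It passed by DESeq2 (adjusted p = 0.00659, where 0.0823% of all genes passed) and without the filter on low counts (adjusted p = 0.0208, where 0.0658% did). It also passed without rat 18 (-0.47, adjusted p = 0.0199), in a fit that called 3 genes in all. The call for Hspa5 thus changed with the tool, the filter and 1 male rat. Hsp90b1 had 454, 467, 476 and 477 CPM in PBS females and 375, 399, 406 and 414 in treated ones, and -0.26 between the sexes (adjusted p = 0.52). Members with an unadjusted p below 0.05 were Hspa5, Hsp90b1, Hsph1 (-0.29), Hspa8 (-0.22) and Calr (-0.16), all 5 below 0. In the contrast of the 2 female groups 0 members passed, where 0% of all genes did, and 6 had an unadjusted p below 0.05 (8.76% of all genes), led by Hspa5 (-0.28) and Hsp90b1 (-0.24), both with an adjusted p of 0.189. In males 0 members had such a p, and Hspa5 had 0.12.

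**Figure D4:**
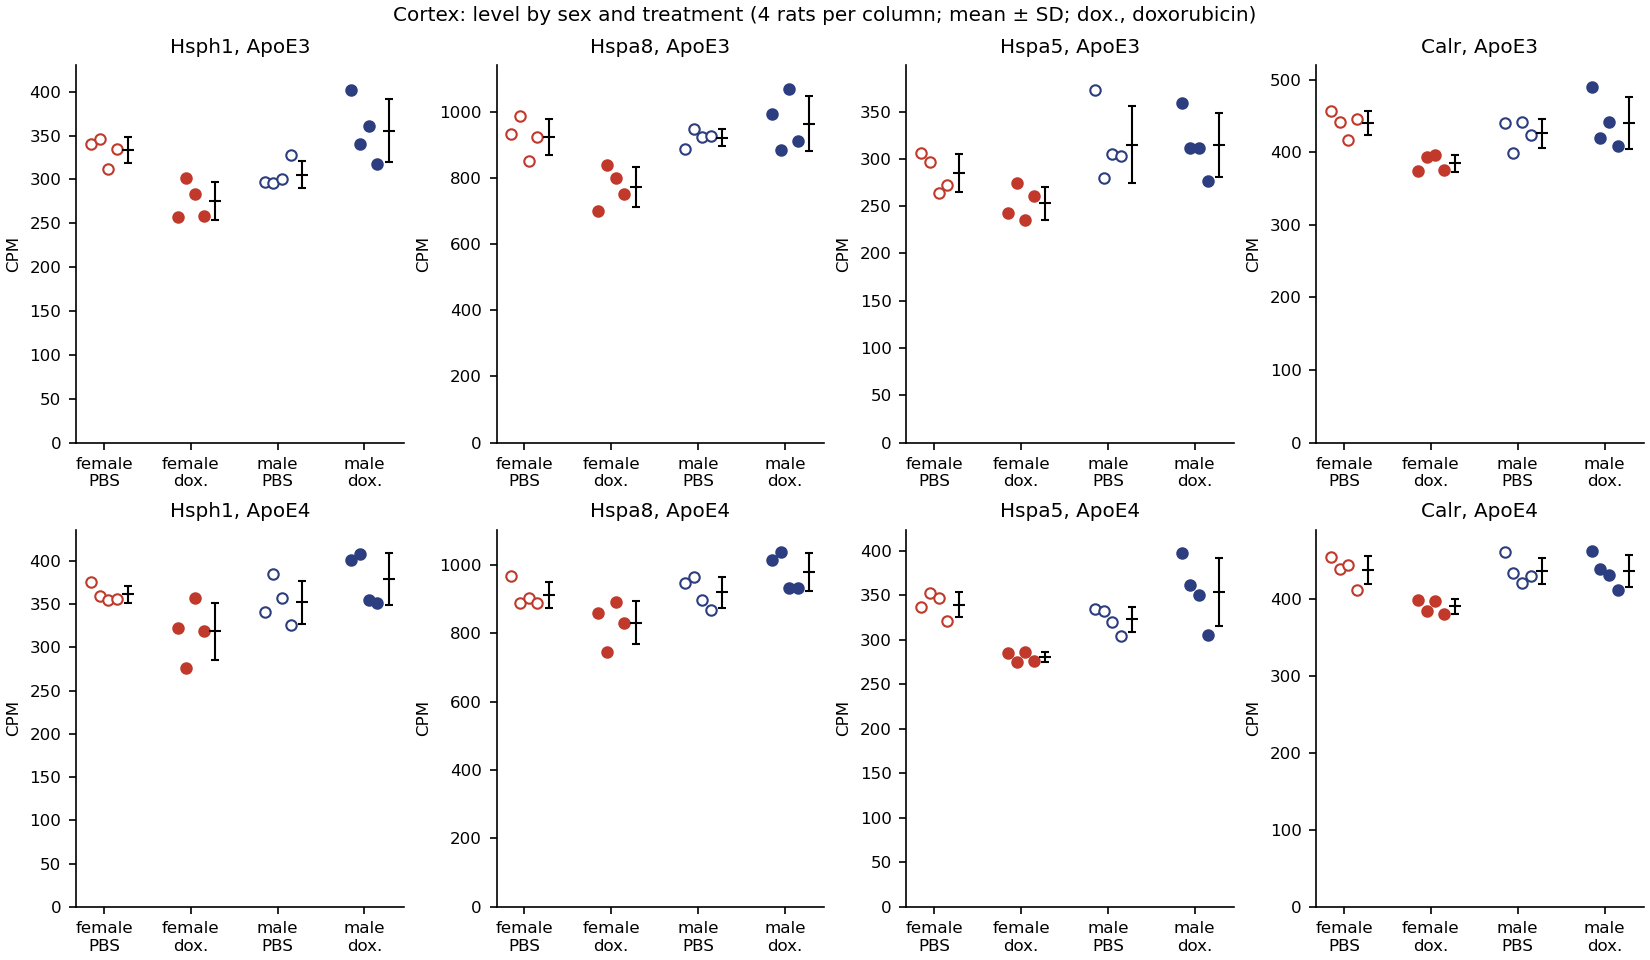
Cortical level in CPM (linear axis from 0) of Hsph1, Hspa8, Hspa5 and Calr in ApoE3 (top) and ApoE4 (bottom), 1 point per rat, 4 rats for each sex and treatment, with mean and SD beside them. Every treated female lies below every PBS female for Hsph1, Hspa8 and Calr in ApoE3 and for Hspa5 and Calr in ApoE4, and in males the treatments overlap.

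When both genotypes entered 1 fit of the 32 cortical libraries, also added after the data were seen, the sex difference passed for Hsph1 (-0.39, SE 0.07, adjusted p = 0.0213), where 0.196% of 15315 genes passed. Hsp90b1 (-0.24) and Hspa8 (-0.27) had an adjusted p of 0.0503 each, Calr (-0.20) had 0.0853 and Hspa5 (-0.28) had 0.115. In hippocampus the test passed for 0 members in ApoE3, ApoE4 or both together by edgeR, where 0% of genes passed and 4.45%, 3.49% and 5.47% had an unadjusted p below 0.05. The members with such a p numbered 1, 4 and 4. By DESeq2 0 members passed within ApoE3 or ApoE4, where 0% and 0.00418% of all genes did. In ApoE4 hippocampus all 5 ER members nevertheless ran without overlap between PBS and treated females, where 2.68% of all genes were lower without overlap. Hspa5 had 397, 398, 414 and 429.6 CPM in PBS females and 314, 318, 340.3 and 357 in treated ones. Manf had 47.9, 51.9, 54.2 and 57.6 CPM against 40.1, 42.6, 43.1 and 44.4. The log2 changes in these females were -0.31 for Hspa5, -0.32 for Manf, -0.25 for Hsp90b1, -0.22 for Pdia6 and -0.19 for Calr, with adjusted p from 0.485 to 0.588, and in males they ran from -0.05 to 0.01. No gene of the table passed in these contrasts of 1 sex. At an unadjusted p below 0.05 were 5 members in ApoE4 females (7.48% of all genes) and 0 in ApoE4 males (3.03%), and in ApoE3 hippocampus 0 in females (6.95%) and 1 in males (8.09%), Calr at 0.13.

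Counted over the members, treated females lay wholly below PBS females for 3 in ApoE3 cortex (Calr, Hspa8 and Hsph1; 4.72% of all genes), 4 in ApoE4 cortex (Hspa5, Hsp90b1, Calr and Pdia6; 1.79%) and 0 in ApoE3 hippocampus (1.52%). In males this held for Hsp90aa1 in ApoE3 cortex alone, where 2.58% of all genes were lower without overlap. The choroid plexus markers summed to 16.2 to 5809 CPM in PBS females and 17.6 to 78.7 in treated females of ApoE4 hippocampus, to 10.3 to 659 and 8.90 to 16.0 in ApoE4 cortex, and to 7.16 to 835 and 4.01 to 618 in ApoE3 cortex. With their score as a covariate the sex difference of Hsph1 in ApoE3 cortex was -0.49 (adjusted p = 0.0102). In those females 4 of 4 meningeal fibroblast markers were above 0, 2 of them passing, and they summed to 41.9 to 74.2 CPM in PBS and 66.3 to 147.7 CPM in treated rats. The 4 neuronal markers were all below 0 with a median of -0.13 and the 4 astrocyte markers all above it with 0.21, with 0 passing. The part of these cell types in the result was not tested.

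Around the members, most other cytosolic folding genes in ApoE3 cortex had the same sign in the test between the sexes. In this test 2.57% of all genes passed. Cacybp (-0.35, adjusted p = 0.0297), a partner of Hsp90 and ubiquitin ligases, and Hspa4 (-0.33, adjusted p = 0.0336), an Hsp110, passed among 31 cytosolic heat shock genes, of which 24 were below 0 with a median of -0.12. The mitochondrial Hsp70 Hspa9 passed as well (-0.34, adjusted p = 0.0327). TRiC had 8 of 8 subunits below 0 with 0 passing and a median of -0.18, and ER folding 13 of 22 with 0 passing and a median of -0.04. Per2, a clock gene whose level follows the time of day, passed in the opposite direction (0.97, adjusted p = 0.0158). The time of day of tissue collection is not given in the sources used here, and the part of the clock in these values was not tested.

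Females and males were also compared over PBS and treated rats together, with treatment as a covariate. By edgeR 0 of 9 members passed in any of the 4 pairs of region and genotype. These values average both treatments and do not give the sex difference of PBS rats alone. The share of all genes that passed was 0.562% in ApoE3 cortex, 0.108% in ApoE4 cortex, 0.0873% in ApoE3 hippocampus and 0.121% in ApoE4 hippocampus. At an unadjusted p below 0.05 were 2 members in ApoE3 cortex (13.8% of all genes), 4 in ApoE4 cortex (6.76%), 0 in ApoE3 hippocampus (5.04%) and 6 in ApoE4 hippocampus (10.7%). The 5 ER members had values below 0 in all 4 pairs, and so did Hspa8 and Dnajb1 of the cytosol. Hsp90aa1 was above 0 in hippocampus of both genotypes (0.12 in each), and Hsph1 in ApoE3 hippocampus (0.01). Hspa5 had -0.23 in ApoE3 cortex (SE 0.06, unadjusted p = 0.00101, adjusted p = 0.0861), -0.13 in ApoE4 cortex, -0.13 in ApoE3 hippocampus and -0.24 in ApoE4 hippocampus (adjusted p = 0.291). Its doxorubicin effect in females minus that in males was -0.16, -0.40, -0.04 and -0.26 in the same order, so the average need not hold within each treatment. In ApoE3 cortex Hspa5 passed by DESeq2 (adjusted p = 0.0213; 1.22% of all genes) and without the filter on low counts (adjusted p = 0.0418; 0.544% of all genes).

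Genotype without the drug was compared in PBS rats, and 1 of 9 members passed in cortex, where 18.2% of all genes passed and 9.63% passed as higher in ApoE4. Hsp90b1, the ER Hsp90, had 428 to 501 CPM in ApoE4 cortex (median 462) and 389 to 451 in ApoE3 (median 414). All 8 ApoE4 rats lay above the ApoE3 median, and the groups overlapped, as they did for every member in both regions (2.15% of all genes did not overlap in cortex and 1.07% in hippocampus). The log2 difference was 0.15 (SE 0.05, adjusted p = 0.0253). It passed in 13 of 16 fits that left out 1 rat, and these 16 fits called 2318 to 2843 genes in all. It did not pass without ApoE3 rat 41 or 45 or ApoE4 rat 19, where the adjusted p rose to at most 0.0577. In these PBS groups the summed meningeal fibroblast markers had a median of 118 CPM in ApoE4 cortex and 56.3 in ApoE3. Those of smooth muscle had 117 and 72.8. Also higher in ApoE4 were the markers of oligodendrocytes (9375 and 8330), astrocytes (2319 and 2066), endothelium (118 and 99.0) and choroid plexus (13.3 and 7.60). Prox1 (15.9 and 14.7) and ependymal markers (5.93 and 5.73) differed less. Neuronal markers (4917 and 5216) and microglial markers (172 and 181) were lower in ApoE4. Beyond a fit with the choroid plexus score, the part of these cell types in the call was not tested. Hspa5 had 0.15 (adjusted p = 0.105) and Hsph1 0.16 (adjusted p = 0.0927) in cortex. Hspa5 passed in 2 of 16 left-out fits, without rat 37 or rat 7 (0.19 in each fit, lowest adjusted p = 0.0337). Hsph1 passed in 1 of 16, without rat 7 (adjusted p = 0.0492). The remaining members of the ER had 0.01 for Calr, -0.02 for Pdia6 and -0.09 for Manf. In the cytosol Hsp90aa1 had -0.23 (adjusted p = 0.116, on low counts), Dnajb1 -0.09 and Hspa8 -0.01. Hsp90b1, Hspa5, Hsph1 and Hsp90aa1 had an unadjusted p below 0.05, where 31.5% of all genes did.

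In hippocampus 0 members passed between the genotypes by edgeR or DESeq2, where 3.81% and 2.88% of all genes passed. By edgeR 16% of all genes had an unadjusted p below 0.05. The 5 ER members were all above 0 with a median of 0.12. Hspa5 had 0.20 (unadjusted p = 0.02, adjusted p = 0.201) and Calr 0.15 (unadjusted p = 0.0075, adjusted p = 0.119), and these 2 were the members with an unadjusted p below 0.05. In the same cortical libraries 1 of 10 clock genes was higher and 5 lower in ApoE4, beside the 18.2% of all genes that passed. The 4 with the smallest p were Ciart (-1.14), Dbp (-0.71), Nr1d1 (-0.45) and Arntl (0.40). Of the 2 cold-inducible genes Rbm3 was lower (-0.39) and Cirbp did not pass. Of the ER folding list, 1 gene was higher and 4 lower in ApoE4 cortex, among them Cdnf, the paralog of Manf, at -1.73, which was also lower in hippocampus at -1.64. Herpud1, a stress-induced part of ER degradation, was lower in cortex (-0.19) and its neighbour in that machinery Sel1l higher (0.17).

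The members also varied together between rats of 1 group. Deviations of log2 CPM from the mean of the region, genotype, treatment and sex were correlated over the 32 rats of a region, for 72 pairs in all, with permutation within groups and Benjamini-Hochberg adjustment over the 72. In hippocampus all 10 pairs of ER members passed (Pearson r from 0.545 to 0.922, median 0.803). Of the pairs of an ER and a cytosolic member 0 of 20 passed (-0.287 to 0.270, median 0.135), and 2 of 6 cytosolic pairs did. How many pairs of other genes would pass was not counted, so these counts and those in cortex are not shown to be particular to chaperones. Hspa5 and Hsp90b1, the ER Hsp70 and Hsp90, had r = 0.922 and Spearman's rho = 0.918, with a permutation p of 1e-05, the smallest these permutations can give (adjusted p = 0.000144), and r = 0.889 without the 2 rats farthest from the median. Hspa8 and Hsph1, the Hsp70 and its exchange factor, had r = 0.659 and rho = 0.663 (adjusted permutation p = 0.00278; 0.713 without the 2 rats).

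In cortex, 6 of 10 ER pairs passed (0.119 to 0.763, median 0.557), 5 of 20 mixed pairs (median 0.296) and 3 of 6 cytosolic pairs. Hspa8 and Hsph1 had the highest r (0.800, rho 0.862, adjusted permutation p = 0.00036; 0.807 without the 2 rats), and the 5 mixed pairs joined Hspa5, Hsp90b1 or Calr to Hsph1, or Hsp90b1 or Calr to Hspa8. Calr and Hsph1 had r = 0.591 and rho = 0.605 (adjusted permutation p = 0.00904). Pairs of 1 library share its depth and scaling: scaled by the ERCC spike-ins, the median r over 64 libraries was 0.952 for ER pairs, 0.859 for mixed pairs and 0.802 for cytosolic pairs, against 0.736, 0.181 and 0.263. With the choroid plexus score taken out in hippocampus, 9 of 10 ER pairs passed with a median of 0.696 and 2 of 20 mixed pairs with a median of 0.347. In cortex without the score, 6 of 10 ER pairs and 5 of 20 mixed pairs passed, and the cytosolic pairs went from 3 of 6 to 1 of 6, Hspa8 with Hsph1.

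**Figure D5:**
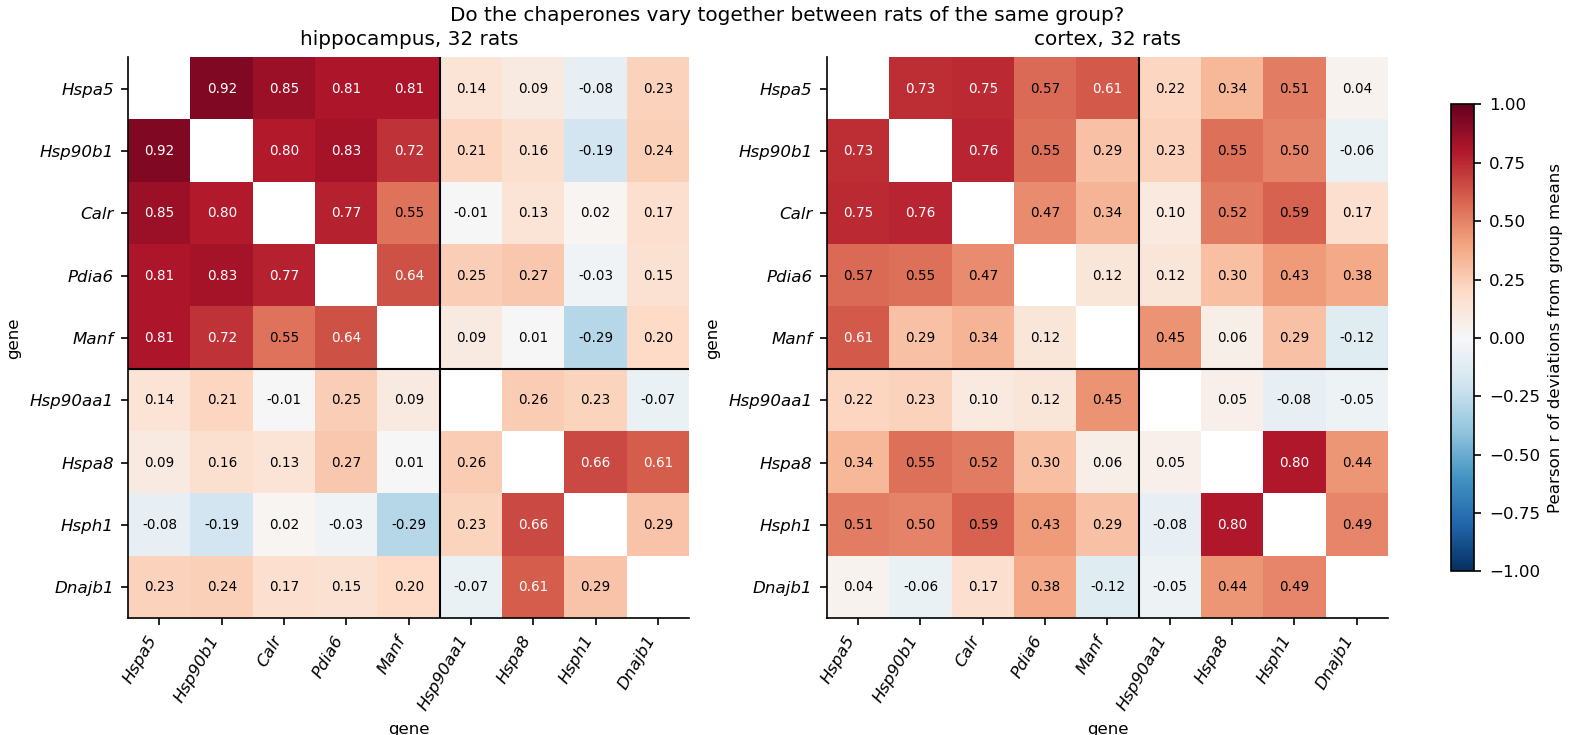
Pearson r between the log2 CPM deviations of each pair of chaperone genes over the 32 rats of a region, with hippocampus and cortex in separate panels and the ER genes listed first. The ER block is uniformly high in hippocampus, from 0.545 to 0.922, and the pair of Hspa8 and Hsph1 stands at 0.659 in hippocampus and 0.800 in cortex.

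A relation between the levels in the 2 regions of 1 rat passed for 0 of 9 members. Over 32 rats, r between hippocampal and cortical deviations was 0.51 for Hspa5 (rho 0.41, permutation p = 0.0237, adjusted p = 0.0789), and 0.354 without the 2 rats farthest from the median. It was 0.51 for Manf, 0.49 for Dnajb1, 0.41 for Hspa8 and 0.39 for Calr, with 5 members at an unadjusted p below 0.05. The share of all genes with such a p was not computed. Pdia6 and Hsp90aa1 had -0.03 and -0.07. Scaled by the ERCC spike-ins, r was 0.134 for Hspa5, 0.157 for Manf, 0.103 for Dnajb1, 0.036 for Hspa8 and 0.073 for Calr, and the adjusted permutation p was 0.975 for all 9 members.

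Among 10074 genes whose log2 CPM averaged 3 or more, the 3 whose deviations over the 64 libraries were most like those of a member were largely folding genes for the ER members. For Hspa5 they were Hsp90b1 (r = 0.86), Calr (0.82) and the disulfide isomerase gene Pdia3 (0.79). Pdia3 was also among the 3 for Hsp90b1 (0.79), Calr (0.80) and Pdia6 (0.69), and for Manf they were Hspa5 (0.74), Pdia4 (0.67) and Atp6v0e1 (0.67). For the cytosolic members, the list for Hsph1 was Dnaja1 (0.78), Syt13 (0.75) and Hspa8 (0.75), and for Hspa8 it was Tusc3 (0.80), the TRiC subunit gene Cct7 (0.78) and Atp6ap2 (0.77). Dnajb1 was nearest to Fkbp4 (0.60), an Hsp90 co-chaperone, and the highest for Hsp90aa1 was 0.48 with Psat1. These values describe libraries that share scaling and carry no test.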

How the data were processed

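RNA from hippocampus and cortex of 32 rats was sequenced as 64 libraries (NEBNext Ultra II RNA kit, per the labels' protocols). Per the submitters' processing notes, reads were aligned with STAR 2.5.2b and groups compared with DESeq2; counter, genome build and strandedness are not given in the sources used here. The authors deposited raw read counts per Ensembl gene in 4 tables of 32644 rows (32551 gene identifiers, 92 ERCC spike-ins and 1 donor sequence) and comparison tables with a log2 fold change with raw and adjusted p-values for each gene; the normalized signal per library that the authors deposited beside them was not used. No per-sample column was left unmapped.

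Tests on the counts used edgeR 4.0.16 under R 4.3.3 with filterByExpr, TMM and the quasi-likelihood F-test. P-values were adjusted by Benjamini-Hochberg over all genes, with a threshold of 0.05. Spike-ins were left out, and the donor row stayed in the counts. Sex was a covariate, and differences of effects were interaction terms. An SE was taken as the size of the log2 change over the root of its F. CPM are TMM-scaled, and log2 CPM carry a prior count of 1. Correlations used 100000 permutations within groups in scipy 1.17.1. The edgeR fits of doxorubicin in ApoE4 hippocampus and of region in ApoE4 were tested on simulated counts. The other analyses were not. Depth and 8 libraries per group limit the precision.

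Both regions come from the same rat, per the rat number in the sample titles, which pairs them; over 14311 genes the correlation of a rat's 2 regional deviations ran from -0.123 to 0.265 (median 0.0991), above 0.1 in 16 of 32 rats. The rats are separate animals, so p-values of comparisons within a region measure the spread between them. The main fits across regions had no term for the rat and took the 2 libraries of a rat as separate. The rat block was the alternative to this.

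The members and gene lists were chosen with earlier results of these data known. Named by rule were all 9 members, the list genes with the smallest p, at most 4 per comparison, and the 3 genes most like each member. Genes of clock, cold response and cell types were given beside results. Of 121 list symbols 118 matched a row, and of 38 marker symbols 34. Chosen after seeing the data were the fits with the choroid plexus score for region, genotype and sex, the fits by sex and over both genotypes, the left-out rats for sex and genotype in cortex, and the permutation tests of member pairs within regions. Alternatives were DESeq2 1.42.0, no filter, ERCC scaling, a rat block and left-out rats.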

Additional observations from a re-analysis of the deposited data

Results flagged for a closer look

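In 6 of 72 groups of 8 libraries (9 genes in 8 groups), 1 library stood far from the other 7 by Dixon's criterion, which chance meets in about 1 of 20 groups. All 6 were PBS libraries of male rats with the highest value of their group. Rat 7 (ApoE4) had 562 CPM of Hspa5 in hippocampus, where the others had 390.4 to 429.6. The same library had 599.8 CPM of Hsp90b1 (others 457 to 510.0) and 667 CPM of Calr (others 515 to 575). Its choroid plexus markers summed to 12320 CPM, the highest of all libraries, and the part of this in the chaperone values was not tested. Rat 37 (ApoE3) had 373 CPM of Hspa5 in cortex (others 264 to 307) and 60.3 CPM of Manf in hippocampus (others 43.0 to 49.8), with choroid plexus sums of 5.89 CPM in cortex and 3312 CPM in hippocampus. Rat 45 (ApoE3) had 78.2 CPM of Dnajb1 in hippocampus (others 56.1 to 65.4), with a choroid plexus sum of 61.2 CPM.

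The cortical doxorubicin effect on Hsph1 differed between the sexes by a tested interaction, at -0.49 in ApoE3 and -0.39 with both genotypes in 1 fit, female minus male.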

How the results depend on the processing

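With ERCC scaling the median of all genes shifted by 0.244 (doxorubicin, ApoE3 hippocampus), 0.306 (ApoE4 hippocampus), 0.178 (ApoE3 cortex) and 0.162 (ApoE4 cortex), and 73 of 180 member values changed sign, so single ERCC values are given relative to that median. For sex by doxorubicin in ApoE3 cortex the median was -0.441, and 8 genes passed higher and 511 lower (3.51% of all genes). Under ERCC scaling, 0 members passed between genotypes in cortex (Hsp90b1 0.14), where 2.01% of all genes passed, against 18.2% in the main fit. Between regions 0 members passed in ApoE3 and 2 in ApoE4, where 24.4% and 23.2% of all genes passed. The median r rose to 0.952 for ER pairs, 0.859 for mixed pairs and 0.802 for cytosolic pairs. The same-rat r lay between -0.047 (Pdia6) and 0.157 (Manf) over the 9 members, turning to -0.019 for Hsph1. In cortex alone the median r was 0.557 for ER pairs (0.539 without the choroid plexus score) and 0.296 for mixed pairs, and in hippocampus without that score 0.347 for mixed pairs. DESeq2 passed 1 member between the sexes in ApoE3 cortex, and 3 and 1 for sex by doxorubicin in ApoE3 and ApoE4 cortex, where 1.22%, 3.13% and 0.0823% of all genes passed; no filter on low counts passed 1, 2 and 1, where 0.544%, 2.6% and 0.0658% of all genes passed. In males alone the doxorubicin value of Hsp90b1 in ApoE4 cortex turned to 0.012. In the male contrasts of the fits by sex, values above 0 stood against values below 0 in both sexes together for 5 members in ApoE4 cortex (Hspa5 0.12, Hsph1 0.09, Hspa8 0.08, Manf 0.03 and Hsp90b1 0.01) and 4 in ApoE3 cortex (Hsph1 0.22, Hsp90b1 0.07, Hspa8 0.07 and Calr 0.05). The causes were not tested. Leaving out 1 rat gave 0 to 3 members between genotypes in cortex, in fits that called 2318 to 2843 genes in all. It gave 1 to 2 and 0 to 1 for sex by doxorubicin in ApoE3 and ApoE4 cortex. Those fits called 125 to 699 and 0 to 3 genes in all. For doxorubicin it gave 0 to 0 in all 4 pairs of region and genotype. The rat block passed 7 and 6 members between regions in ApoE3 and ApoE4, where 51.1% and 50.2% of all genes passed. For region by doxorubicin it passed 0 members, where 0.0583% and 0% of all genes passed. Beyond Manf and Hsph1 it changed no member's call.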

Other observations

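The members were also set against marker and clock genes over the 32 rats of a region, as deviations of log2 CPM from group means, 108 relations in all with permutation p adjusted over them. In cortex, Dbp, a clock output gene, ran against Hspa5 (r = -0.764, rho = -0.715, adjusted permutation p = 0.0362, r = -0.645 without the 2 rats farthest from the median), Hsp90b1 (r = -0.631, rho = -0.663, adjusted permutation p = 0.043) and Calr (r = -0.647, rho = -0.631, adjusted permutation p = 0.0444, r = -0.474 without the 2 rats). Cirbp, a cold-inducible RNA-binding protein gene, ran against Hsph1 in cortex (r = -0.579, rho = -0.598, adjusted permutation p = 0.0443). In hippocampus, Ttr, the defining choroid plexus transcript, ran with Hspa5 (r = 0.676, rho = 0.526, adjusted permutation p = 0.0362, r = 0.603 without the 2 rats), Hsp90b1 (r = 0.661, rho = 0.503) and Calr (r = 0.625, rho = 0.539, adjusted permutation p = 0.043 for both). By rho the relation of Ttr and Hspa5 had an adjusted permutation p of 0.110 and that of Dbp and Hspa5 0.0205.

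ER stress elements occurred beyond the members. Of 20 further ER folding genes with a promoter in the RefSeq table, 6 held an ERSE or the shorter ATTGGNCCACG (ERSE-II): Creld2, Hyou1, Canx, Dnajb11, Dnajc3 and Ero1b. Of 14 sensor and degradation genes, 2 did, Xbp1 and Herpud1. Over all promoters 39 (0.117%) held either. The HSE was found in 2 of 26 cytosolic heat shock genes, Dnaja1 and Chordc1, in 1 of 8 TRiC genes, Cct4, and in 2 of 6 mitochondrial chaperone genes, Hspd1 and Hspe1, a chaperonin and its partner.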
